A study of Gallus gallus with 14 samples.

Results

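Chicken piRNA clusters rich in 10A and poor in 1T were examined. They were selected on their deposited base composition, with an A at position 10 in at least 70% and a T at position 1 in under 40% of the normalized hits. The lists of 8 small RNA libraries hold 12964 clusters, of which 196 in blastodermal cells and 38 in the other libraries met the rule. They also had to be called on 1 strand or on both strands together (mono or dual) rather than as bidirectional clusters, in which the strand changes at 1 point. Another 11262 clusters were not bidirectional either and served for comparison. Since 10A, 1T and the call as bidirectional or not chose the clusters, those values are given as description only, and no test of them is read.

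piRNAs are small RNAs that guide PIWI proteins to transposon transcripts and other targets in germ cells. Primary piRNAs, cut from long single-stranded precursors, mostly begin with U, which the lists write as T. When a PIWI protein cleaves a target, the cut product can become a secondary piRNA whose base 10 pairs with the first base of its guide. In this ping-pong cycle secondary piRNAs are therefore rich in 10A and need no U at their first base.

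Small RNAs that withstood sodium periodate, which spares the methylated 3′ end of piRNAs, were sequenced in 2 libraries each of 4 sources. These were blastodermal cells (BC), primordial germ cells cultured out of gonads at E7 (E7PGC), and gonads taken at E11 (E11G) or at E14 (E14G). BC1 and BC2 came from Leghorn blastoderms of fresh fertilized eggs. E7PGC1 and E7PGC2 came from cultured male cells of Arbor Acres broilers. The gonads were male and whole, so they hold somatic cells as well. E11G1 and E14G1 came from Cobb 500 broilers, and E11G2 and E14G2 from Leghorn. By the paper E11G1 and E14G1 were run on a MiSeq and the other small RNA libraries on a Solexa platform. RNA-seq was performed in 6 further libraries of JA57 animals, 2 each from BC, E11G and E14G. Each blastodermal or gonadal RNA pooled several embryos, and the sexes of the BC embryos are not given in the labels. For BC, E7PGC and the RNA-seq stages, nothing in the labels ties the 2 libraries to separate cultures or flocks. The 2 small RNA libraries of E11G, and those of E14G, differ in breed and sequencer, so their spread includes both. The p-values measure the spread between these libraries only. In bulk samples fewer cells of a type and less RNA per cell cannot be told apart.

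The lists rest on 1394576 (E11G1) to 10786087 (E7PGC1) reads. BC1 and BC2 hold 80774 and 77346 distinct sequences, and the other 6 libraries hold between 255025 and 1608518. The lowest density at which a cluster was called was lowest in BC1 (2.21 RPM per kb) and highest in E14G1 (13.3 RPM per kb). For normalized hits (RPM), each read is shared out over the places it maps to and the sum is scaled to the reads of that list. A hit is a genomic place of a distinct sequence, so a cluster with few hits has its base composition set by few sequences.

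The lists also give matches to short binding motifs of the transcription factors A-MYB and RFX4. A-MYB drives transcription of piRNA precursors in the mouse and rooster testis. A selection is shown here, for the most abundant and the most recurrent loci with a match, as the lists write them, 5′ to 3′ and entirely in capitals because every letter belongs to the match. Positions count bases from the cluster start on galGal5. No strand is given for them.
Mybl1_1 match at position 9303 of chr4:13739220-13749911 (BC1, the same base in BC2): AACCGTTA
Mybl1_1 match at position 3016 of chr4:53981344-53986525 (E7PGC1, the same base in E11G2): AACCGTTA
RFX4_1 match at position 7254 of the scaffold assigned to chromosome 23, 267 to 12346 (E11G2): CATGGCAAC
RFX4_1 match at position 11781 of the same cluster: CCTGGCAAC
RFX4_2 match at position 76 of chr4:20455160-20458839 (E14G2): CATGGTTAC
RFX4_2 match at position 8909 of chr7:5858262-5870757 (E14G2): GTAACTAGG
RFX4_2 match at position 9042 of the same cluster: CATGGATAC
A-MYB match at position 12238 of the same cluster: AGACAGTTGG

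A match was not particular to the 10A-rich clusters. Among BC clusters between 3000 and 10000 bp, 39 of 169 10A-rich, 1T-poor clusters (23.1%) and 315 of 1592 others (19.8%) had any match. Outside BC the counts were 10 of 35 (28.6%) and 1998 of 6439 (31.0%). RFX4_1 was the most frequent motif of the 10A-rich BC clusters (27 of 169, against 184 of 1592 others), and its letters in the lists were 16 different 9-base sequences. Calls of BC1 and BC2 at the same locus count apart here. Some matches also recur at near-equal positions, as at 3803 and 3804 of the unplaced BC1 clusters from 1191 to 5834 and from 1540 to 10788. Such clusters may be copies, which was not tested. A-MYB, with 8 different 10-base sequences, was matched in 2 of the 169, against 30 of 1592 others. Outside BC it was matched in 0 of 35, against 311 of 6439 others. Mybl1_1 was matched in 0 of the 169 and 21 of 1592 others, and outside BC in 2 of 35 and 148 of 6439. The BC cluster with a Mybl1_1 match shown above is longer than 10000 bp. These counts are descriptions, and no site was tested for use.

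The 10A-rich, 1T-poor clusters lay mainly in blastodermal cells. BC1 held 109 of them among 1344 clusters and BC2 held 87 among 1317. E7PGC1 held 5, E7PGC2 6, E11G1 7, E11G2 11, E14G1 1 and E14G2 8. Both BC libraries thus stood above all the others, which held 38 clusters together. The paper judged ping-pong by piRNAs that overlap at their 5′ ends and saw a 10A bias among them in samples other than BC. Such overlaps were not examined here, and the share of a base in a cluster is another measure.

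**Figure D1:**
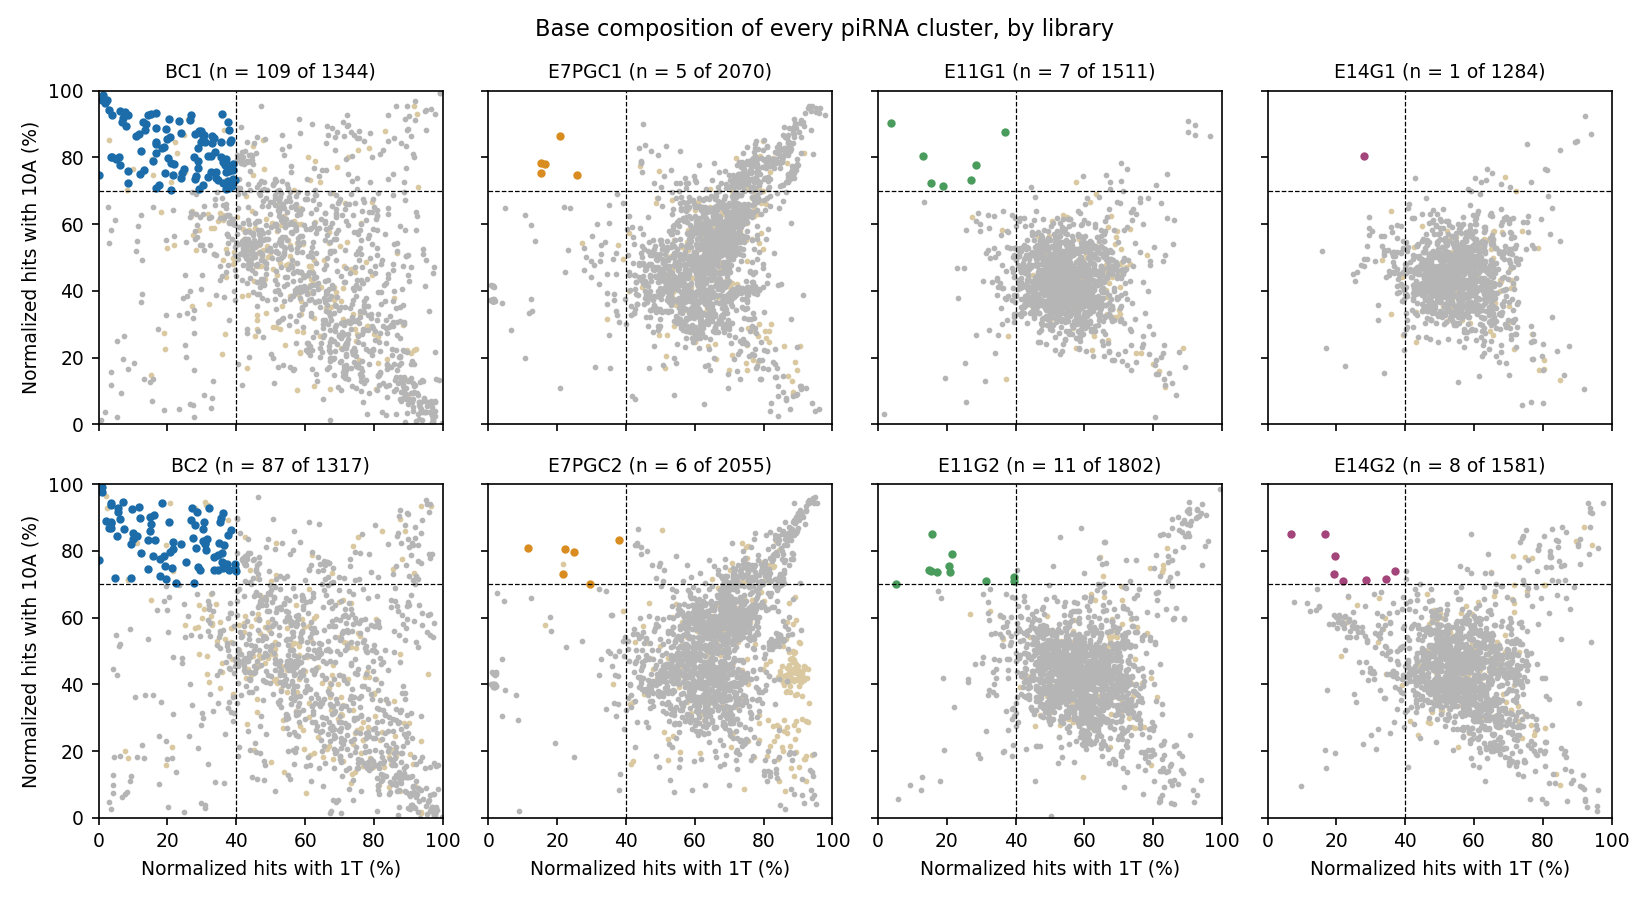
Normalized hits with 1T (x axis, %) against normalized hits with 10A (y axis, %) for every cluster of each library, with coloured points for clusters that met the rule, grey points for the others, beige points for bidirectional clusters and dashed lines at 40% and 70%. The upper left corner holds 109 and 87 clusters in BC1 and BC2 and between 1 and 11 in each of the other 6 libraries.

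As a share of all clusters this was 7.36% ± 1.06 (SD, n = 2) in BC, 0.267% ± 0.036 (SD, n = 2) in E7PGC, 0.537% ± 0.104 (SD, n = 2) in E11G and 0.292% ± 0.303 (SD, n = 2) in E14G. Weighted by normalized hits, the clusters took 1.97% and 1.93% of the clustered hits of BC1 and BC2. In the other libraries the share lay between 0.0313% (E14G1) and 0.585% (E11G2). The differences between libraries of a stage averaged 8.5 clusters, against 42.2 over all pairs of libraries. Over all ways to pair the 8 libraries this closeness did not pass 0.05 (exact permutation test, one-sided, p = 0.0857 for the number and for both shares, smallest possible p = 0.00952). The number and the shares follow from the values that the rule used, so nothing is read from this test. BC against the other 6 libraries was also compared by exact permutation, but the values themselves prompted that split, so nothing is read from it.

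**Figure D2:**
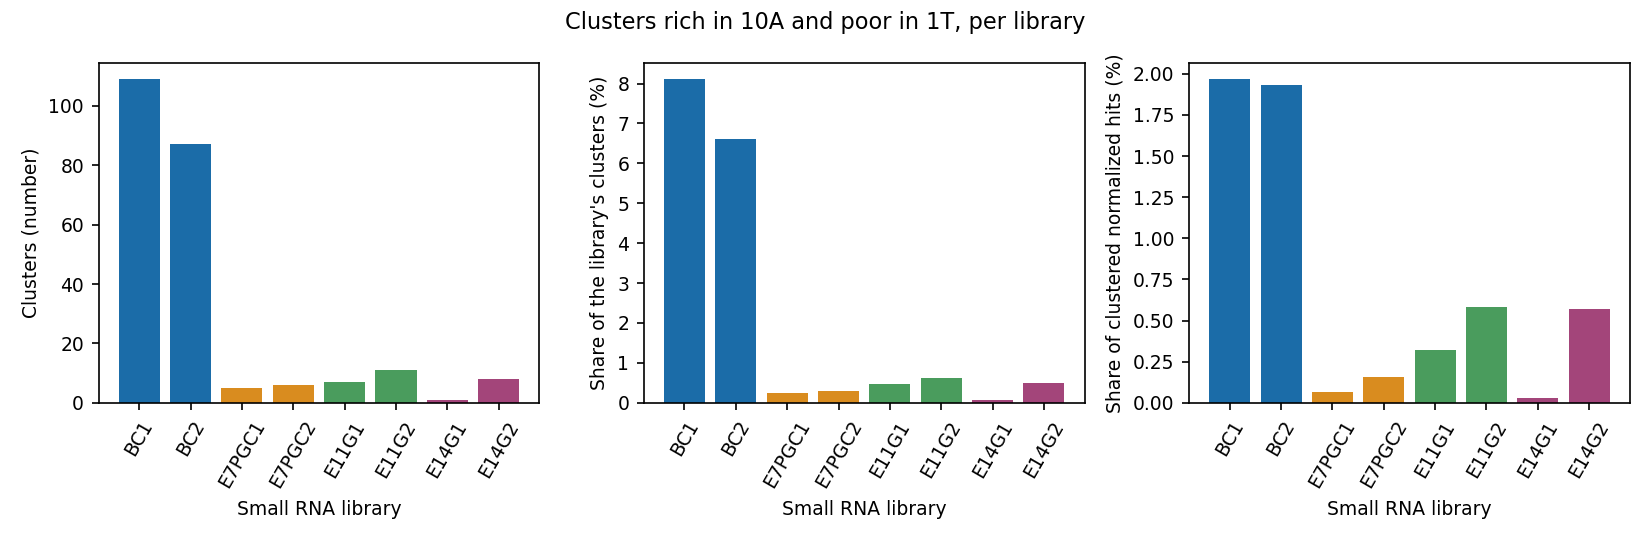
Bars give, for each library, the number of 10A-rich, 1T-poor clusters, their share of the library's clusters (%) and their share of the clustered normalized hits (%). The BC bars reach 109 and 87 clusters and the highest bar outside BC reaches 11.

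BC differed from the other libraries in its lower density threshold and its fewer distinct sequences as well. Among clusters of at least 13.3 RPM per kb in every library, 50 in BC1 and 47 in BC2 remained within the rule, and between 1 and 9 in the others. Their shares were 8.36% and 8.38% in BC and between 0.0827% and 0.656% elsewhere. Among clusters with at least 100 hits, 36 in each BC library met the rule, with 0 and 4 in the E7PGC libraries, 1 and 8 in those of E11G, and 0 and 7 in those of E14G. Both settings were chosen after seeing the data. BC, E11G2 and E14G2 were all Leghorn, and the 2 Leghorn gonad libraries held 11 and 8 such clusters.

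The condition on 10A was met differently in BC. Of the non-bidirectional clusters with under 40% 1T, 48.2% in BC1 and 43.9% in BC2 also held at least 70% 10A. In the other libraries this was between 1.45% (E14G1) and 14.3% (E11G2), although E14G2 held 133 such clusters of low 1T. Over all clusters of a library, the median 10A share did not set BC apart. It was 50.2% and 46.6% in BC1 and BC2, 51.1% and 50.7% in E7PGC1 and E7PGC2, and 42.8% to 44.1% in the gonads. The median 1T share was 58.7% and 60.8% in BC, 66.1% and 68.1% in E7PGC, and 54.6% to 58.8% in the gonads. The 10A-rich, 1T-poor clusters of BC1 had medians of 24.2% 1T and 81.2% 10A, and those of BC2 21.3% and 83.2%.

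The thresholds cut through a continuous range. Just inside 70% 10A lay an E7PGC2 cluster exactly at the limit on an unplaced scaffold (1128 to 8851) and an E11G2 cluster at 70.1% on chrZ:57533243-57536623. Just outside lay BC clusters at 69.8% on chr5:3965246-3969971 and at 69.7% on chr2:82245767-82251713. Just inside 40% 1T lay BC clusters at 39.9% and 39.7%, and just outside a 417 RPM cluster of E14G2 at 40.1% and a BC1 cluster at 40.2%.

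The clusters were mostly short and on 1 strand. Their lengths ran from 3023 to 18962 bp with a median of 5394 bp, and 204 of them were under 10000 bp. Piled on the minus strand were 126, on the plus strand 93, and 15 were dual. In BC1 the split was 61 minus, 40 plus and 8 dual, and in BC2 it was 46, 35 and 6. Since the rule leaves out only bidirectional clusters, the share on 1 strand can be set beside that of the other non-bidirectional clusters. It was 92.7% against 74.4% in BC1, 93.1% against 72.2% in BC2, and between 83.3% and 100% against 43.8% to 62.8% in the other 6.

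The longest were the calls of both BC libraries over the same 18962 bp of a scaffold assigned to chromosome W (178 to 19139), with 244 RPM in BC1 and 227 RPM in BC2. The shortest was a BC2 cluster of 3023 bp on chr3:94299010-94302032 with 62.4 RPM. The next was a BC1 cluster of 3073 bp on chr2:134298713-134301785 with 12.2 RPM. Both extremes of length were thus in BC, which held 83.8% of these clusters.

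The clusters covered a wide range of abundance, from 11.2 to 1692 RPM with a median of 81.8 RPM. In BC the median was 68.5 RPM (BC1) and 72.2 RPM (BC2). The E7PGC medians were 101 and 110 RPM, those of E11G 232 and 87.9 RPM, and those of E14G 169 and 322 RPM. The medians outside BC were all higher than those in BC, beside a lower calling threshold in BC, whose part was not tested.

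Compared with the other non-bidirectional clusters of the same library, the 10A-rich, 1T-poor clusters were shorter. The median length was lower in 7 of 8 libraries, and the difference averaged -1922 bp ± 1388 (SD, n = 8). In BC1 the medians were 5137 bp and 5759 bp and in BC2 5678 bp and 5642 bp, so the BC libraries showed little of it. The widest gap was in E7PGC1, with 4109 bp against 7889 bp. An exact sign-flip permutation test over the 8 libraries gave p = 0.0156 and, adjusted over 7 measures by Benjamini-Hochberg, 0.0365 (two-sided). The 7 measures include the 10A share in the other library, which is tied to the rule. Its small p lowered the adjusted values of length, of hits and of hits per kb. The length difference lost the 0.05 level when any library but BC2 was left out (adjusted p from 0.0547 to 0.0729, exact permutation test). Libraries of a stage share loci, so the 8 differences are not independent, and with the 4 stage means as units no such test can fall below 0.125.

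The number of hits was lower in 8 of 8 libraries, by 123.5 on average (SD 91.2, n = 8, exact sign-flip permutation test, adjusted p = 0.0273). The medians were 68 and 103 hits in BC1, 84 and 96 in BC2, and 330.5 and 440 in E14G2. With any library but BC2 or E11G2 left out, the adjusted p was 0.0547 (exact permutation test). Of the 196 BC clusters, 124 had under 100 hits. Fewer places therefore carried the normalized hits of these clusters than of others. A base share set by few sequences reaches extremes more easily, so the rule itself can favour clusters of few hits, and with them short ones. The tests of hits and length cannot separate that from another difference.

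Normalized hits per kb were higher in 7 of 8 libraries, by 9.60 RPM per kb ± 10.1 (SD, n = 8, exact sign-flip permutation test, adjusted p = 0.0410). In BC1 the medians were 11.9 and 11.5 RPM per kb and in BC2 14.3 and 10.8 RPM per kb. In E14G2 they were 43.3 and 17.6 RPM per kb. E11G2 went the other way, with 17.1 against 18.2 RPM per kb, and without any library but E11G2 the adjusted p was 0.0547 to 0.0820 (exact permutation test). The rule reads shares of normalized hits, which a few abundant sequences can set. Such sequences also raise hits per kb, so the test of density cannot separate that from another difference. The total of normalized hits per cluster did not separate from the others (21.1 RPM ± 78.5 (SD, n = 8), higher in 2 of 8 libraries, exact sign-flip permutation test, p = 0.609).

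The choice between plus and minus was not part of the rule. The share on the minus strand differed by -1.02 percentage points ± 23.9 (SD, n = 8) from that of other clusters (exact sign-flip permutation test, p = 0.906). Each library counted alike, although E14G1 held 1 such cluster (-50.5 points), and without E14G1 the mean was 6.05 points. The test therefore cannot decide whether the strand was lopsided.

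**Figure D3:**
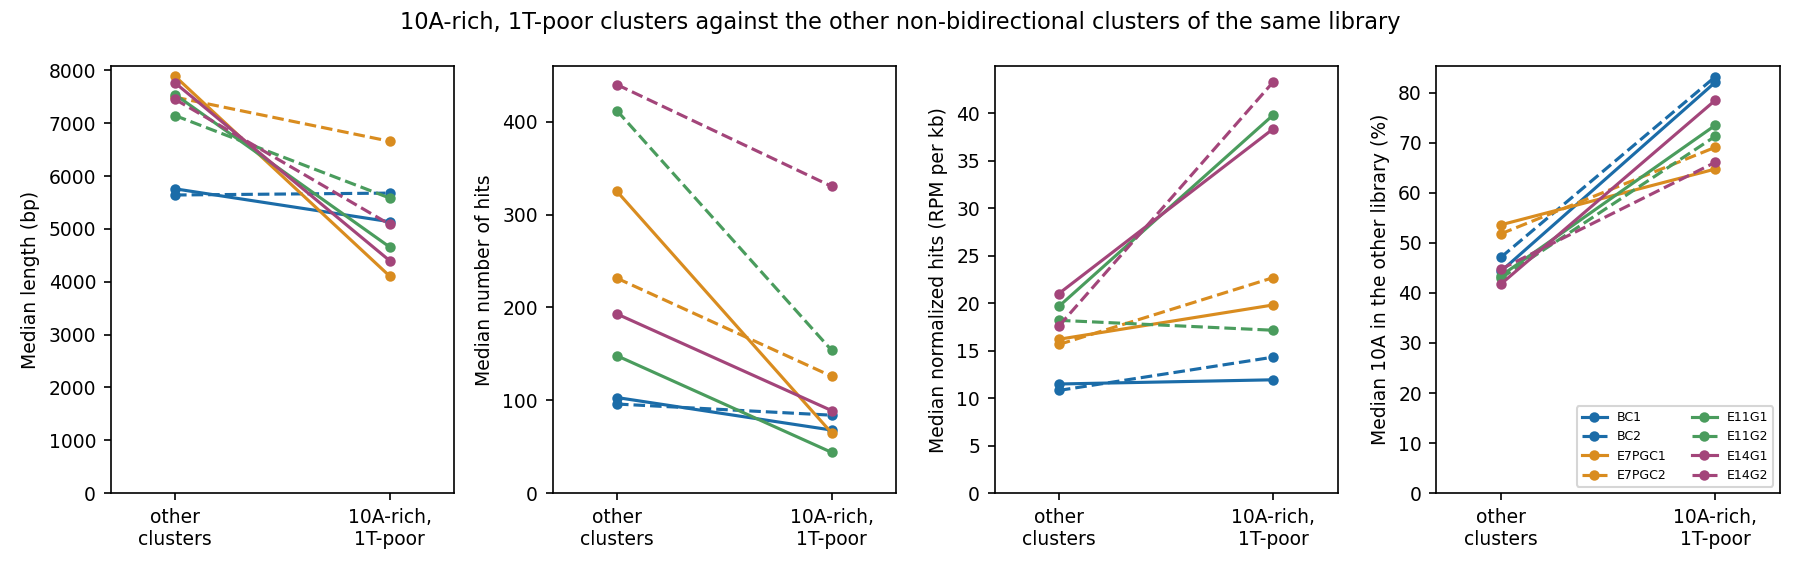
Lines join, for each library, the median of the other non-bidirectional clusters to that of the 10A-rich, 1T-poor clusters, for length (bp), number of hits, normalized hits per kb (RPM per kb) and the 10A share in the overlapping cluster of the other library of the stage (%). The number of hits falls and the 10A share rises in 8 of 8 libraries.

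The base composition could also be read in the other library of the same stage. Each library of a pair both chose clusters and served as readout, so these values are a description with no test. Where the other library had an overlapping call, its 10A share was 82.1% (BC1 clusters) and 83.2% (BC2 clusters), against 44.3% and 47.1% for other clusters. The medians were 64.8% and 69.1% for the clusters of E7PGC1 and E7PGC2, against 53.6% and 51.8%. They were 73.5% and 71.3% for those of E11G1 and E11G2, and 78.5% and 66.1% for those of E14G1 and E14G2. The 10A share was higher than for other clusters in 8 of 8 libraries, by 27.4 percentage points ± 9.87 (SD, n = 8).

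In BC the whole rule was usually met in the other library too. Of the 196 BC clusters, 137 overlapped a cluster that met the rule in the other BC library. In 32 the other library had no call, 9 missed the 1T limit alone, 7 the 10A limit alone, 5 both, and 6 were called bidirectional. BC1, the library with more of these clusters, lacked a partner call for 26 of 109 and BC2 for 6 of 87. Outside BC, 8 of 38 met the rule in the other library of the stage and 19 had no call there. The share with an overlapping call in the other library was not distinguishable from that of other clusters (-16.0 percentage points ± 25.2 (SD, n = 8), exact sign-flip permutation test, p = 0.148).

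Merged where they overlapped by at least 1 bp, the clusters of all 8 lists formed 4034 loci, of which 151 held a 10A-rich, 1T-poor cluster. The strand named below for a locus is that of its clusters within the rule. BC accounted for 125 loci, 68 of them with such a cluster in both libraries. E7PGC had 10 loci (1 in both libraries), E11G 16 (2 in both) and E14G 8 (1 in both). No locus met the rule both in BC and outside BC (0 of 151). Outside BC 26 loci met it, 7 of them in 2 or more stages, and 3 of the 26 were called as a cluster of any kind in BC. Of all 1437 loci called in BC, 125 held such a cluster, so 0 among these 3 lies near that share.

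Most of the BC loci had no cluster at all in later stages. Of the 125, 103 were called in no library outside BC and 22 (17.6%) in at least 1. Of the 1312 other BC loci, 656 were called outside BC. A missing call means under the threshold of that list, which was higher outside BC, and is not an absence of piRNAs.

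Where a BC locus was called later, its composition was outside the rule, like that of nearly all clusters of those stages. In the 21 loci called in E7PGC the median was 63.1% 1T and 48.5% 10A. In the 15 called in E11G it was 64.1% and 41.9%, and in the 14 called in E14G 63.3% and 43.7%. None of these met the rule in those stages (0 of 21, 0 of 15 and 0 of 14). Of all clusters, only 0.267% met it in E7PGC, 0.537% in E11G and 0.292% in E14G, so these counts lie near that share. The medians over all clusters, averaged over the libraries of a stage, were 67.1% 1T and 50.9% 10A in E7PGC. They were 56.7% and 43.25% in E11G and 55.95% and 43.85% in E14G. The fall from the BC values is a description, since BC values chose the loci.

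**Figure D4:**
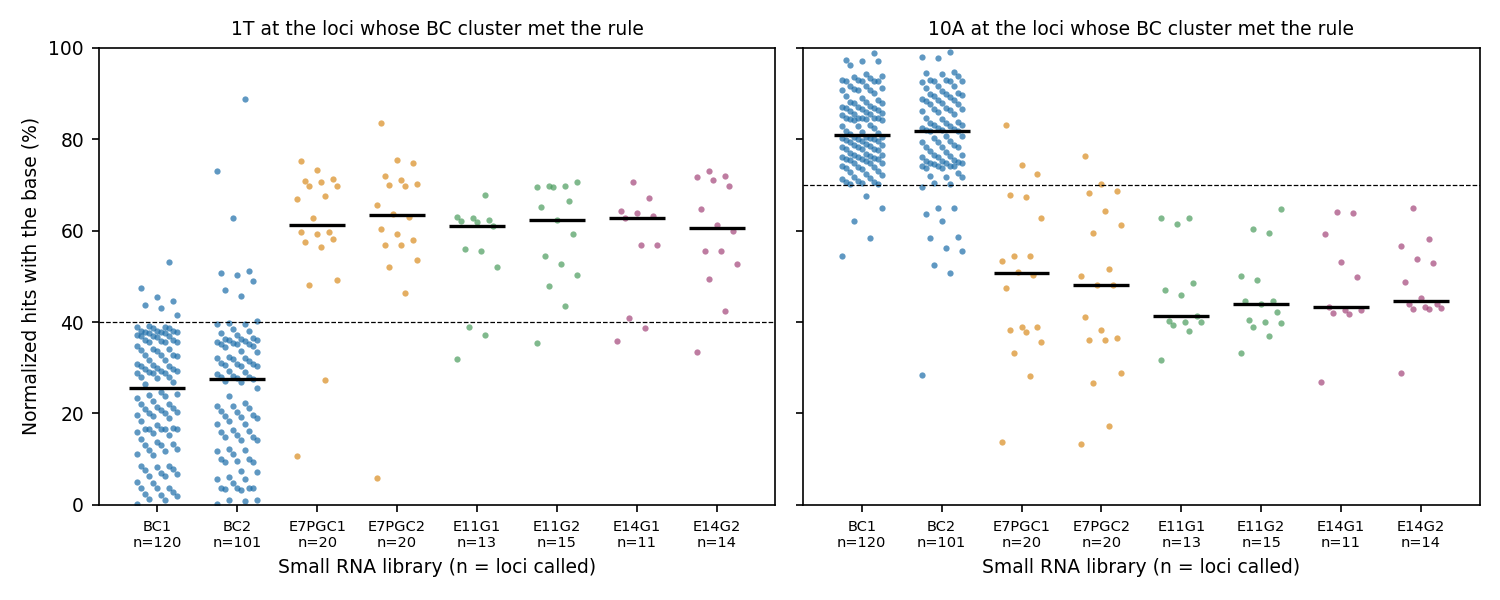
For the loci with a 10A-rich, 1T-poor cluster in BC, points give the share of normalized hits with 1T (left, %) and 10A (right, %) in each library where the locus was called, black lines give medians and dashed lines the thresholds of 40% and 70%. Outside BC most of the points lie above 40% 1T and below 70% 10A.

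The most abundant BC locus was on chr4:13737012-13753563. It was called in every library, with mono minus clusters within the rule in BC1 and BC2. BC1 and BC2 held 1218 and 1262 RPM, 7738 and 10944 RPM in E7PGC1 and E7PGC2, 8571 and 9394 RPM in E11G1 and E11G2, and 2976 and 5218 RPM in E14G1 and E14G2. BC was thus lowest and no BC value overlapped those of other stages. Its piRNAs were 79.9% and 85.9% 10A in BC, 62.7% and 48.1% in E7PGC, 62.8% and 60.4% in E11G, and 63.9% and 56.6% in E14G. With 20.1%, 14.8%, 10.7%, 5.92%, 32.0%, 35.4%, 35.8% and 33.5% 1T in the same order of libraries, it stayed under 40% 1T in 8 of 8. It left the rule outside BC through 10A alone.

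The second recurrent BC locus by abundance, on chrZ:43941103-43949623, was a mono plus cluster of 698 RPM in BC1 and 637 RPM in BC2. Its 10A share was 80.2% and 75.2%. It had no call in the other 6 libraries. The BC cluster with the highest 10A share (99.0%, with 1.0% 1T) lay on a scaffold assigned to chromosome W (226 to 3590) in BC2 and rested on 13 hits. That with the lowest 1T share (0.1%, with 74.7% 10A) lay on chr5:3520469-3524881 in BC1, with 482 RPM from 29 hits.

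Among the gonad loci, chr4:41877267-41881840 recurred most. It met the rule in 4 of 4 gonad libraries and was called in no other. This mono plus cluster held 643 and 1030 RPM in E11G1 and E11G2, and 169 and 911 RPM in E14G1 and E14G2. Its 10A share stayed between 77.7% and 80.4% and its 1T share between 19.7% and 28.4%. The Cobb 500 library of E14 was the lowest of the 4.

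The mono minus locus on chr7:5858262-5870757 met the rule in E11G1 (232 RPM), E11G2 (241 RPM) and E14G2 (330 RPM). In E14G1 it held 69.0 RPM with 58.9% 10A, and in E7PGC1 60.4 RPM with 49.0% 10A. Both values were below those of the 3 libraries that met the rule. The other 3 libraries had no call.

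The mono minus locus on chr4:20454135-20459341 met the rule across stages, in E7PGC1 (123 RPM), E11G2 (216 RPM) and E14G2 (92.7 RPM). E7PGC2 had 90.5 RPM there with 36.8% 1T but 48.6% 10A. Neither of the Cobb 500 libraries had a call, and neither had BC. The 2 Leghorn gonad clusters shared a 10A share of 84.9%.

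The most abundant cluster of all lay on the scaffold assigned to chromosome 23 (267 to 12351), a mono plus locus called in 8 of 8 libraries. It held 41.7 RPM in BC1 and 45.5 RPM in BC2, 861 and 1004 RPM in E7PGC1 and E7PGC2, 1062 and 1692 RPM in E11G1 and E11G2, and 469 and 1063 RPM in E14G1 and E14G2. BC was lowest without overlap. It met the rule in E11G2 and E14G2 only, because in the other libraries 1T was between 42.9% and 49.8%. Its 10A share lay between 70.3% and 76.3% in 7 of 8 libraries and was 56.3% in BC2.

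**Figure D5:**
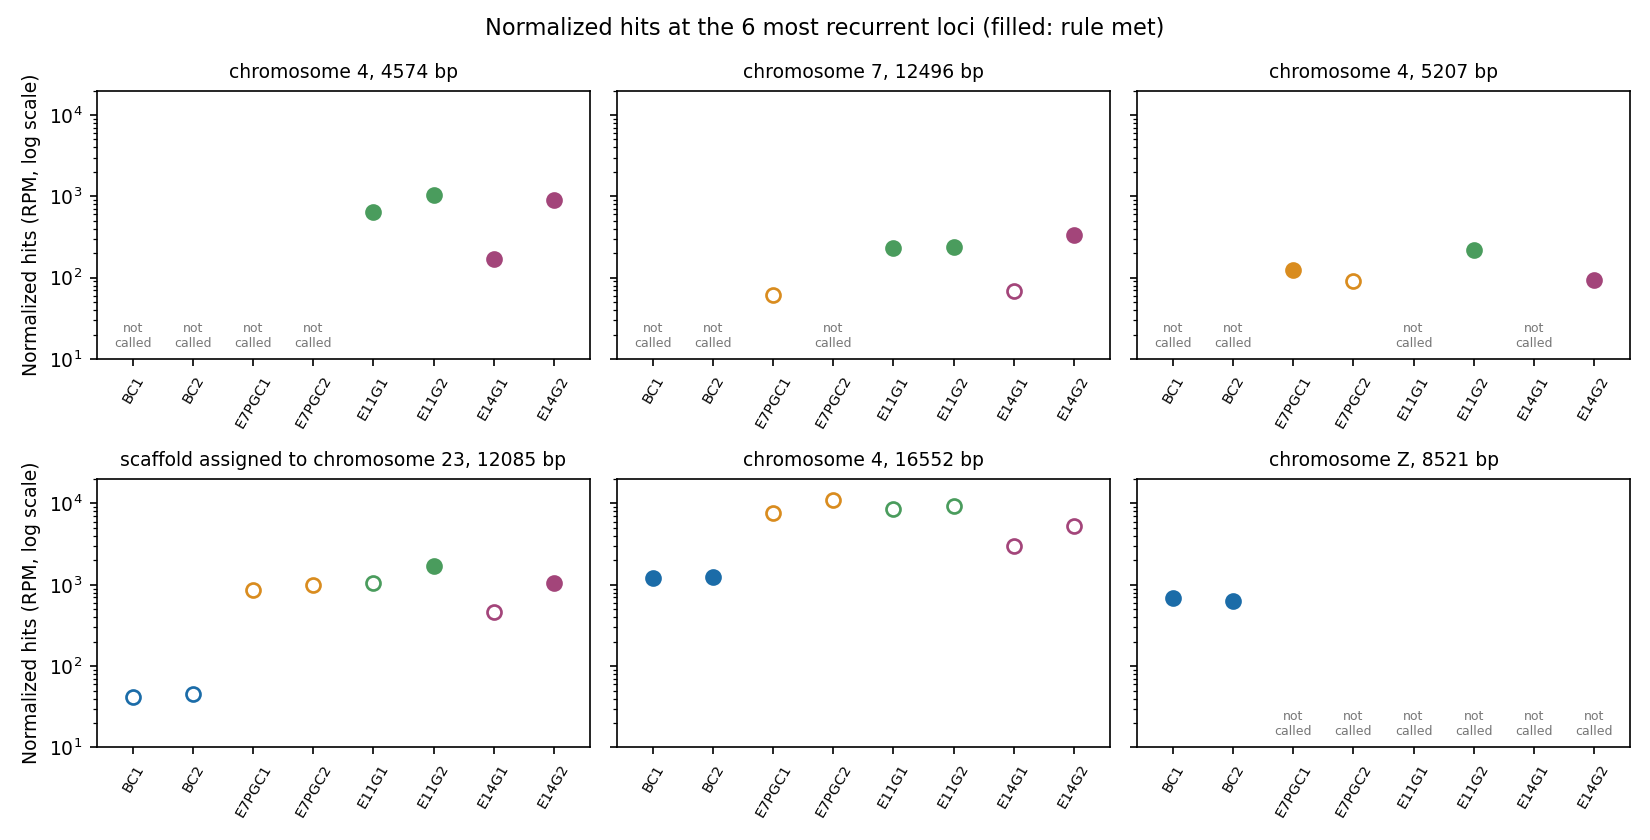
Normalized hits (RPM, log scale) in each library at the 6 loci with the most recurrent or most abundant 10A-rich, 1T-poor clusters, with filled points where the rule was met, open points where another cluster was called and grey text where none was called. The chromosome 4 locus of 4574 bp is filled in 4 of 4 gonad libraries and that on chromosome Z in BC only.

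In E7PGC, the most abundant cluster of this kind was a mono plus cluster on chr9:1715264-1719885 in E7PGC2 (366 RPM, 73.1% 10A). It was followed by a mono minus cluster on an unplaced scaffold (21886 to 29635) in E7PGC2 with 315 RPM. The locus that met the rule in both E7PGC libraries was on chr1, from 152488914 to 152492488 in E7PGC1 (70.8 RPM, 86.5% 10A) and from 152488821 to 152492380 in E7PGC2 (81.7 RPM, 80.9% 10A). The highest 10A share in E11G was 90.4%, in a mono plus cluster on chr4:20819151-20824237 of E11G1 with 3.7% 1T and 379 RPM from 41 hits. The E14G clusters with the highest 10A share (84.9%) were the chromosome 4 cluster already given and one on chr1:181894114-181899005, which also had the lowest 1T share (6.7%).

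By chromosome, BC clusters of this kind were spread widely. Scaffolds without a chromosome held 53 of the 196, assembled chromosome 1 held 29 and scaffolds assigned to chromosome 1 held 20. On these last, 20.4% of the BC clusters were of this kind, against 7.97% on assembled chromosome 1. Chromosome W and its scaffolds held 25 clusters, 16 in BC1 and 9 in BC2, among 192 and 182 W-placed clusters of any kind. Without chromosome W, a setting chosen after seeing the data, 93 and 78 clusters remained in BC and between 1 and 10 elsewhere.

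Outside BC, chromosome 4 held 11 of the 38 clusters, in 5 loci. Male libraries also had W-placed calls, between 8 (E14G1) and 70 (E7PGC1) clusters of any kind, and the rule was met by 1 of them in E11G1 (chrW:545609-551584, 440 RPM) and by 1 in E11G2 (chrW:5026415-5031999, 81.9 RPM).

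Changes of normalized hits between stages could be tested only in loci called in all 4 libraries of a comparison, which left few of the loci. From BC to E7PGC, 17 of the 135 loci with a cluster that met the rule in either stage could be tested. At limma's adjusted p of 0.05, 14 were higher and 2 lower in E7PGC, where 66.7% of all 465 loci tested were higher and 14.6% were lower. The median log2 ratio was 1.77 in these loci and 1.05 in all. Scaling by trimmed means moved the median of all loci to -0.04, and then 8 of the 17 were higher and 3 lower, beside 34% and 31.6% of all loci. The median of the 17 was then 0.68, so scaling lowered both medians and that of these loci stayed above that of all. A call in both E7PGC libraries, where the threshold was higher than in BC, was a condition of the test. Loci that fell below it are missing, so these medians do not describe the rest of the 135.

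The largest rise was at a locus on another scaffold assigned to chromosome 23 (4 to 18439). Within it a dual BC1 cluster from 14546 to 18396 (32.2 RPM) met the rule. Values tested sum all clusters of a locus, and the whole locus was outside the rule in BC1, with 45.5% 1T and 67.6% 10A. It held 53.5 RPM in BC1, 48.7 RPM in BC2, 1019 RPM in E7PGC1 and 1304 RPM in E7PGC2. The log2 ratio was 4.47 ± 0.18 (SE, n = 2 and 2, limma, adjusted p = 0.000133), and 3.38 with scaling by trimmed means. A dual locus on an unplaced scaffold (3 to 8379) had 68.5 and 51.1 RPM in BC and 944 and 1289 RPM in E7PGC. Its log2 ratio was 4.20 ± 0.25 (SE, limma, adjusted p = 0.000378), and 3.11 with that scaling. A mono minus locus on an unplaced scaffold (113 to 22420) had 81.1 and 50.3 RPM in BC and 521 and 842 RPM in E7PGC, a log2 ratio of 3.36 ± 0.36 (SE, limma, adjusted p = 0.00202), and 2.27 with that scaling.

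This last locus and 3 others on unplaced scaffolds, all mono minus and within the rule in both BC libraries, had like values. Set against the one from 86 to 19725, the locus from 124 to 19817 was within 1.35-fold, that from 9 to 19659 within 1.44-fold and that from 113 to 22420 within 1.51-fold in each of 8 libraries. Near-identical copies share reads, which the lists divide evenly between places. These loci may therefore not be separate sources of piRNAs, although the counts above hold them as 4 of the 17 loci. The loci of the largest rises, from 4 to 18439 and from 3 to 8379, were within 1.32-fold of each other in each of 8 libraries. Their 10A shares in E7PGC1 were 67.9% and 50.9%. Whether like values mark copies was not tested.

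The loci that fell were on assembled chromosome 6 and on a W scaffold. The mono plus locus chr6:10298606-10313152 had 233.9 and 210.4 RPM in BC and 103 and 68.4 RPM in E7PGC (log2 ratio -1.39 ± 0.24, SE, limma, adjusted p = 0.00715). The mono minus locus of the W scaffold (405 to 9334) had 86.6 and 88.1 RPM in BC and 44.6 and 40.3 RPM in E7PGC (log2 ratio -1.03 ± 0.14, SE, limma, adjusted p = 0.00358). Scaled by trimmed means the log2 ratios were -2.47 on chromosome 6 and -2.10 on the W scaffold. BC and E7PGC did not overlap at either. The BC embryos may be of both sexes and the E7 cells are labelled male, so stage and sex cannot be told apart for W.

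From E7PGC to E11G, 4 of 23 loci were tested and none was called (0 of 4, limma), with 11.6% of 851 loci higher and 6.7% lower in E11G. At an unadjusted p under 0.05 there were 2. They were a dual locus on an unplaced scaffold (36 to 8930), with 74.1 and 94.8 RPM in E7PGC and 176 and 209 RPM in E11G (log2 ratio 1.19 ± 0.34, SE, limma, adjusted p = 0.0598), and a mono minus one (57 to 14863). The latter had 56.1 and 78.9 RPM in E7PGC and 121 and 135 RPM in E11G (log2 ratio 0.93 ± 0.31, SE, limma, adjusted p = 0.0878). In both the E11G libraries lay above both E7PGC libraries. At the chromosome 23 locus from 267 to 12351 the log2 ratio was 0.53 (limma, adjusted p = 0.326).

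From E7PGC to E14G, 3 of the 4 loci tested were higher and none lower, where 19.7% of 746 loci were higher and 22% lower. The locus from 57 to 14863 rose to 331 and 325 RPM in E14G (log2 ratio 2.28 ± 0.36, SE, limma, adjusted p = 0.00905). That from 36 to 8930 rose to 321 and 363 RPM (log2 ratio 2.01 ± 0.36, SE, limma, adjusted p = 0.0103). A mono plus locus on another unplaced scaffold (91 to 7001), which met the rule in E7PGC2 and E14G2, went from 154 and 125 RPM to 325 and 411 RPM (log2 ratio 1.39 ± 0.37, SE, limma, adjusted p = 0.0274). The first and second of these met the rule in E7PGC2 alone, and the comparisons share the E7PGC libraries with the preceding ones.

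From E11G to E14G, 5 of 20 loci could be tested and none passed (0 of 5, limma), nor did any of the 816 loci, of which 0% were called higher and 0% lower. At an unadjusted p under 0.05 there were 247 loci in all and 1 of the 5. Libraries of the same number share a breed and a sequencer here. With the replicate number as a block 413 loci were called, 16.4% higher and 34.2% lower in E14G, and 3 of the 5 were among them. The locus from 91 to 7001 was higher, with 112 and 169 RPM in E11G and 325 and 411 RPM in E14G (log2 ratio 1.40, blocked adjusted p = 0.00160, limma, 0.131 without the block). The chromosome 23 locus (log2 ratio -0.92, blocked adjusted p = 0.00857, limma, 0.225 without) and the chromosome 4 locus from 41877267 (log2 ratio -1.05, blocked adjusted p = 0.0262, limma, 0.367 without) were lower. The median log2 ratio of all loci was -0.30, and -0.05 after scaling by trimmed means, under which the unblocked fit made no call (smallest adjusted p = 0.0532).

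At the chromosome 7 locus the breeds went opposite ways, from 232 to 69.0 RPM in Cobb 500 and from 241 to 330 RPM in Leghorn (log2 ratio -0.64 over both, limma, adjusted p = 0.534, 0.186 with the block). The chromosome 2 locus chr2:58007929-58013141, mono plus and within the rule in E14G2 alone, had 180 and 231 RPM in E11G and 212 and 315 RPM in E14G (log2 ratio 0.34, limma, adjusted p = 0.491, 0.216 with the block). There both breeds were higher in E14G, with log2 ratios of 0.23 in Cobb 500 and 0.45 in Leghorn.

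Transcripts overlapped fewer of the BC clusters than of other BC clusters. In BC 50 of 196 (25.5%) of the 10A-rich, 1T-poor clusters overlapped a transcript of the RNA-seq table and 818 of 2020 others (40.5%) did. The shares were 26.6% against 39.9% in BC1 and 24.1% against 41.1% in BC2. Outside BC it was the reverse, with 22 of 38 (57.9%) against 3705 of 9242 (40.1%). Neither difference was tested. Overlap was counted without regard to strand, and other clusters were longer outside BC. On assembled chromosomes lay 49.5% (BC1) and 39.1% (BC2) of the 10A-rich, 1T-poor clusters, against 54.2% of others in each. Outside BC 30 of the 38 lay there, against 38.6% (E7PGC), 38.5% (E11G) and 44.3% (E14G) of others, as means of 2 libraries. Only E7PGC2 went the other way, with 33.3% against 36.3%. Whether placement accounts for the differences in overlap was not tested.

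In all, 120 transcripts overlapped the clusters, and 38 reached 1 FPKM in some library. From BC to E11G, 12 of the 38 were higher and 16 lower at limma's adjusted p of 0.05, where 38% of 22368 transcripts were higher and 40.4% lower. From E11G to E14G, 1 was higher and none lower, beside 1.52% and 2.32% of all. These shares lay near those of all transcripts.

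Of the transcripts with a gene symbol, DDX10 and NR1D2 were higher in BC and CALD1 was lower. DDX10, a DEAD-box RNA helicase, overlapped mono plus clusters of both BC libraries on chr1:180070472-180077521. It had 55.7 and 59.4 FPKM in BC, 10.7 and 9.45 FPKM in E11G and 12.9 and 13.7 FPKM in E14G, so BC did not overlap the gonads (log2 ratio E11G to BC -2.40 ± 0.09 (SE), on the log2(FPKM + 1) scale). NR1D2, a nuclear receptor of the circadian clock, had 29.9 and 31.0 FPKM in BC and between 7.96 and 8.99 FPKM in the gonads. It lay over a mono minus cluster of BC1 on chr2:37361152-37364988.

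CALD1, which encodes the actin-binding caldesmon, lay over mono minus clusters of both BC libraries on chr1:62469337-62473417. It had 2.30 and 1.85 FPKM in BC, 18.2 and 17.5 FPKM in E11G and 30.2 and 33.5 FPKM in E14G. Its rise from E11G to E14G (log2 ratio 0.80 ± 0.11 (SE), limma, adjusted p = 0.0286) was the single call among the overlapping transcripts, and it was lost when any 1 of the 6 libraries was left out. TBC1D1, a Rab GTPase-activating protein, was level, with 13.4 to 15.7 FPKM in all 6 libraries, over mono plus clusters of BC1 and BC2 on chr4:70194324-70203051.

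Outside BC, SEPTIN5, a cytoskeletal GTP-binding protein, lay over clusters of E7PGC1 and E11G2 on chromosome 15 and had 19.9 and 23.2 FPKM in BC and 13.9 to 16.6 FPKM in the gonads. HS6ST1, a heparan sulfate sulfotransferase, lay over the chromosome 9 cluster of E7PGC2 and had at most 28.5 FPKM in BC and 54.7 to 61.0 FPKM in the gonads. HYKK, a hydroxylysine kinase, lay over an E11G1 cluster on chr10:3591242-3595900 and had 2.13 and 2.26 FPKM in BC and 5.25 to 6.88 FPKM in the gonads. All 3 differed between BC and E11G (limma, adjusted p of 0.0136, 0.000330 and 0.000227).

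The transcript with the largest difference had no symbol. ENSGALT00000078392.1, over a mono minus cluster of BC1 on chr1:149107072-149111383, had 116 and 70.8 FPKM in BC and at most 0.31 FPKM in the gonads (log2 ratio E11G to BC -6.17 ± 0.24 (SE), limma). ENSGALT00000058931.1, over the same cluster, had 24.9 and 13.1 FPKM in BC and at most 0.141 FPKM in the gonads. They overlap the same cluster, and it was their values that drew attention to them.

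Of 22 genes of the piRNA machinery 6 were matched in the RNA-seq table. From BC to E11G, 4 were higher and 1 lower, beside 38% and 40.4% of all transcripts tested. PIWIL1, which binds piRNAs and cleaves their targets, had 1.80 and 1.99 FPKM in BC, 21.8 and 13.5 FPKM in E11G and 28.0 and 26.6 FPKM in E14G (E11G to BC, log2 ratio 2.65 ± 0.22, SE, limma, adjusted p = 0.000181). DDX4, the germ cell helicase of the nuage, had 5.27 and 5.68 FPKM in BC and 17.6 to 26.2 FPKM in the gonads. ASZ1, a scaffold protein of the piRNA pathway in mouse germ cells, was higher in E11G (log2 ratio 2.36, limma) and so was HENMT1, which methylates the 3′ end of piRNAs (0.38). PARN, a ribonuclease that trims RNA 3′ ends, was lower (-0.83), and TDRD7, a tudor protein of germ granules, had 13.2 and 14.1 FPKM in BC and 12.8 and 12.7 FPKM in E11G. From E11G to E14G none of the 6 passed (limma, adjusted p from 0.142 to 0.660).

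Most marker genes followed the stage labels of the RNA-seq libraries, but HBE of the blood list and the ovary genes did not. The pluripotency genes NANOG and SOX3 summed to between 1126 and 1237 FPKM in BC, 37.7 to 40.1 FPKM in E11G and 5.74 to 7.20 FPKM in E14G (2 of 3 matched). The Sertoli cell genes AMH, SOX9 and DMRT1 (3 of 3) summed to 8.30 to 8.95 FPKM in BC and at least 2995 FPKM in the gonads. The germ cell genes DDX4 and DAZL (2 of 3) summed to 15.3 to 17.2 FPKM in BC and 71.4 to 85.4 FPKM in the gonads. The steroid genes (3 of 3) summed to at most 4.44 FPKM in BC and at least 180 FPKM in the gonads, and the blood genes (4 of 5) to at most 7.28 FPKM and at least 505 FPKM, with HBBA listed at 0 in 6 of 6. HBAD made up most of the gonad blood sum (490 to 847 FPKM). HBE had 5.84 and 6.18 FPKM in BC, 9.90 and 12.8 FPKM in E11G and 3.05 and 2.18 FPKM in E14G. HBE and HBZ fell from E11G to E14G (limma, adjusted p of 0.0192 and 0.0149). The ovary genes (2 of 2) summed to 68.3 to 82.6 FPKM in BC through FOXL2, to 0.202 and 118 FPKM in E11G and to at most 0.572 FPKM in E14G. Replicate 1 of E11G held 116 FPKM of CYP19A1, the aromatase of the ovary, and the other gonad libraries at most 0.0188 FPKM. FOXL2 was 2.45 FPKM there and at most 0.554 FPKM in the other gonad libraries. The gonads are labelled male, and whether that pool, or the small RNA pools with W-placed calls, held female tissue was not tested.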

How the data were processed

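Small RNA clusters and RNA-seq values were taken as the authors deposited them. The authors mapped periodate-treated reads to galGal5 with TopHat2, removed other small RNA classes with Bowtie (1.2.0 in the submitters' processing notes) and called clusters per library with an adapted proTRAC. The methods give a mapping that keeps 1 place per read, but the lists count several, and the mapping behind them is not given in the sources used here, so what the division by places rests on is uncertain. The other values of these lists, as deposited, are normalized hits in RPM of the list's own reads and percent shares of them. The headers of both E7PGC lists name E6 cells, and the labels' E7 was used. The deposited FPKM values come from TopHat2, Cufflinks 2.2.1 and Cuffnorm, and their depth is unknown.

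The clusters and all lists of genes were chosen with earlier results of these data known. Named clusters were the 2 most abundant per stage, the most recurrent loci, the longest, shortest and most extreme ones, those next to the thresholds and the largest changes. Named genes were the overlapping transcripts with a symbol (2 microRNA genes listed at 0 were left out), 22 genes of the piRNA machinery and markers of germ, Sertoli, steroid, blood, ovary and pluripotent cells. RefSeq accessions gave symbols to 6731 of 42501 transcripts (assembly GRCg7b, names only).

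Libraries were compared by exact permutation tests, loci by limma 3.58.1 (R 4.3.3) on log2(RPM + 1) and transcripts on log2(FPKM + 1) with at least 1 FPKM in a library, with Benjamini-Hochberg adjustment. Both tools were checked on simulated data. The loci simulated for limma had a smaller spread than the data and no pairing by breed. That check therefore does not bear on the choice between the fits with and without the block. Replicate numbers of E11G and E14G stand for the same breed and sequencer. The differences between replicates correlated across 816 loci (r = 0.617), so these numbers pair the libraries. The fit without the block was the design, and blocked values stand beside it. Alternatives covered both limits of the rule, bidirectional clusters, placement, low values, pseudocounts, scaling, merging, the replicate block and each library left out. Columns of the authors' own comparisons were not used.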

Additional observations from a re-analysis of the deposited data

Results flagged for a closer look

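At the chromosome 7 locus from 5858262 to 5870757, the change from E11G to E14G had opposite signs in the breeds, with a log2 ratio of -1.74 in Cobb 500 and 0.45 in Leghorn. Each breed has 1 library per stage, so the difference was not tested, and breed and sequencer cannot be told apart.

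The share of 10A-rich, 1T-poor clusters on the minus strand lay above that of other clusters in BC1 (10.99 percentage points), BC2 (7.21), E7PGC1 (29.8) and E7PGC2 (10.4), and below it in E14G1 (-50.5) and E14G2 (-13.9). The E14G values rest on 1 and 8 clusters. The difference between stages was not tested.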

How the results depend on the processing

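The closeness of libraries of a stage, given as the ratio of their mean difference to that of all pairs, passed 0.05 under some settings by the exact permutation test. These were assembled chromosomes only (0.386 for the number, 0.341 for the share of clusters, 0.278 for the share of hits), a 1T limit of 50% (0.188 for the number, 0.158 for the share of clusters) and a limit of 30% (0.141 for the share of clusters). It also passed without E14G2 for all 3 measures (exact permutation p of 0.0190, 0.00952 and 0.0286) and without E14G1 for both shares (0.0286 and 0.0476). Leaving out each library in turn gave ratios of 0.124 to 0.236, 0.0874 to 0.197 and 0.137 to 0.436. The number and the shares follow from the values that the rule used, so nothing is read from these passes. Differences between the 10A-rich, 1T-poor clusters and the others lost the 0.05 level with the 4 stage means as units (length -1922 bp, hits -123.5, hits per kb 9.60). The 10A difference in the other library, given last for each setting as a value only, was 27.4 points there. The level was also lost at a 1T limit of 50% (-717 bp, -42.7, 14.2, 29.3), at 100 hits or more (-2048 bp, -103 hits, 31.4, 28.8) and without E14G1, the library with under 5 such clusters (-1716 bp, -126, 8.49, 26.0). Leaving out any other library had the same effect on length except BC2, on hits except BC2 and E11G2, and on hits per kb except E11G2. Hits per kb also lost it at 10A of at least 60% (5.17), on assembled chromosomes (10.2) and at the common density threshold (6.63), and the 10A difference was 33.5 points at 80%. With 7 libraries the smallest p is larger, so these losses follow in part from fewer libraries. Left out in turn, the libraries gave -2201 to -1656 bp, -139 to -104.0 hits, 7.30 to 11.1 RPM per kb, 25.9 to 29.7 points of 10A and -21.2 to -11.8 points of overlapping calls. Normalized hits changed sign at 10A of at least 60% (-9.35 RPM), at the common threshold (-24.9 RPM) and without E14G2 (range -3.18 to 31.3 RPM). The minus strand share changed sign at 60% (5.19 points), 80% (15.1), a 1T limit of 30% (3.41) and without E14G1 (6.05, range -5.42 to 6.05).

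Counts of limma calls depended on which loci were tested. With loci called in at least 1 library and 0 elsewhere, calls in all loci and in the 10A-rich, 1T-poor ones were 311 of 2362 and 1 of 20 (E14G against E11G), 1052 of 3038 and 4 of 23 (E11G against E7PGC), 1008 of 2946 and 6 of 16 (E14G against E7PGC), and 2136 of 3207 and 98 of 135 (E7PGC against BC). In the last comparison 18 of the 98 were higher and 80 lower in E7PGC, beside 1453 higher and 683 lower of all loci. A 0 in these counts stands for a missing call. Loci called in 1 stage only thus differ by construction, and nothing is read from the counts. Left out in turn, the libraries gave 0 to 128 and 0 to 3, 0 to 305 and 0 to 2, 100 to 348 and 2 to 3, and 351 to 390 and 14 to 16. The 128 and 3 arose without E14G2, the 305 without E7PGC1, the 100 without E7PGC2, and the 0 of E11G against E7PGC without either E11G library. With the replicate block they were 413 and 3 for E14G against E11G, and 66 for all loci of E11G against E7PGC, where 156 were called without it. Same-numbered libraries of E11G and E7PGC correlated at 0.153, of E14G and E7PGC at 0.191 and of E7PGC and BC at -0.0193. They share only a number, and the block changed no call of a 10A-rich, 1T-poor locus in those 3 comparisons.

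Transcript calls from E11G to E14G fell from 858 to 408 without a filter (0 over the clusters) and 497 at 5 FPKM, and were 623 with a pseudocount of 0.1. Without 1 library they were 2 to 319 (0 to 1 over the clusters). From BC to E11G 11384 were called at 5 FPKM (18 over the clusters) and 15437 to 17453 without 1 library (26 to 29). A depth of 1394576 reads in E11G1 and 1658418 in E14G1 limits calls of weak clusters in the Cobb 500 gonads.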

Other observations

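Over all clusters of a library, the shares of 1T and 10A were ordered differently in BC and E7PGC. Spearman's rho across clusters, which share a library and differ in their number of hits, was -0.450 over 1344 clusters in BC1 and -0.385 over 1317 in BC2. It was 0.391 over 2070 clusters in E7PGC1 and 0.257 over 2055 in E7PGC2. The E7PGC lists held 297 and 222 non-bidirectional clusters rich in 10A, of which 1.68% and 2.70% met the rule, against 47.2% and 42.4% of 231 and 205 such clusters in BC.

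The normalized hits per hit had medians of 0.912 RPM in BC1 and 0.933 RPM in BC2 for the 10A-rich, 1T-poor clusters, against 0.623 and 0.614 RPM for the others. In E14G2 the medians were 0.925 and 0.308 RPM, and in E7PGC1 1.36 and 0.374 RPM. This measure was looked at after the lower number of hits and the higher density had been seen and is not independent of them.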
